A study of Solanum lycopersicum with 8 samples.

Results

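The genes described here are 5 tomato genes of ethylene perception and signalling, the receptor genes ETR3 and ETR4, the signal transducer gene EIN2 and the transcription factor genes EIL1 and EIL3. They were found through the RefSeq transcript accession that the array design gives for each probe, and they are 5 of the 23737 transcripts or genes that the design distinguishes by accession. ETR3, the gene of the Never ripe mutant, is listed in the reference under a locus symbol with ETR3 as a synonym. The array carries 13 probes for the 5 genes, namely 4 for ETR3, 2 for ETR4, 1 for EIN2, 5 for EIL1 and 1 for EIL3.

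Ethylene receptors sit in the membrane of the endoplasmic reticulum and are negative regulators: without the hormone they keep CTR kinases active, which hold back EIN2. When ethylene binds, this brake is released, part of EIN2 reaches the nucleus, and EIN3-like factors such as EIL1 and EIL3 accumulate and switch on response genes, while EBF proteins mark these factors for degradation. In tomato fruit, which ripens in response to ethylene, a dominant mutation of ETR3 blocks ripening and lowered ETR4 makes fruit ripen early.

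RNA came from whole mature leaf and whole red ripe fruit of tomato (Solanum lycopersicum) accessions that the labels call AV, TM, SK and RJ. AV was obtained from Hyderabad, TM from Kashmir, and SK and RJ from Chatha and Rajouri in the Jammu province, and the accessions are said to differ in how their fruit matures and in its carotenoids. Cy3-labelled RNA of each accession and tissue was put on its own one-colour Agilent array, 4 arrays per tissue and 8 in all. No treatment is given. Whether plants were pooled is not stated, and p-values therefore measure the spread between these arrays, which may be technical in part.

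Between 17.2% and 24.4% of the 33750 non-control probes of an array were well above background, and no spot was saturated. All leaf arrays were on 1 slide, the fruit arrays of AV and TM on another and those of SK and RJ on the last of the 3 slides, so that tissue and slide cannot be told apart. Levels below are log2 processed signals minus the 75th percentile of the array over the 3085 probes seen on all arrays. The tissue labels were compared with marker genes, chosen with earlier results of these data known. All 6 measured leaf markers were called lower in fruit and all 7 measured ripe fruit markers higher, beside 28.9% and 25.9% of all genes tested. Most of them entered the test only through the tissue where they were high, which fixed or favoured this direction. CAB6A, PSBP and Cel2, above background on all arrays, differed by -5.84, -3.86 and 5.44 (fruit minus leaf, log2). The photosystem gene PsbQ was above background on no fruit array, and the fruit gene 2A11 and the ripening regulator gene RIN on no leaf array. With the spike-in scaling described below, 6 of the 7 fruit markers were still called higher. LEA14 was the only measured one of 4 listed seed markers. It was as bright in leaf (mean -0.09, SD 1.75) as in fruit (mean -0.21), so it says nothing of seed in the fruit. LEA14 differed by -0.12 ± 0.64 (fruit minus leaf, log2 ± SE), with limma's adjusted p = 0.886, and by -1.43 with spike-in scaling (adjusted p = 0.00532).

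Both measured receptor genes were above background on every fruit array, EIL1 was moderately higher in fruit, and EIN2 and EIL3 did not pass the test. Neither receptor gene was above background on any leaf array, so that their differences are known only as bounds, at least 6.08-fold higher in fruit for ETR4 and at least 4.22-fold for ETR3. Against the leaf signal as measured, which was not above background, the differences were 4.53 ± 0.28 and 3.93 ± 0.27 (log2 ± SE, n = 4 accessions). EIL1 rose by 1.44 ± 0.35. The difference was 0.78 ± 0.34 for EIL3 and 0.21 ± 0.33 for EIN2. Thus 3 of the 5 genes were called higher in fruit and 0 lower by limma with accession as a block and an adjusted p under 0.05, where 54.8% of the 4733 genes tested were called, 25.9% higher and 28.9% lower. The filter before this test asked that a probe be above background in leaf or in fruit of all 4 accessions. ETR3 and ETR4, which entered through fruit alone, therefore had to differ, and their calls add nothing to the bounds. The 3 tested EIL1 probes also entered through fruit alone, as none of them was above background on SK leaf. This favoured a call of EIL1 as higher. Of the 13 probes, 10 passed the filter, and 8 of these were called, all higher in fruit. The 8 were the probes of ETR3, ETR4 and EIL1, which all entered through fruit alone. The background was 56.9% of 6657 probes, 29.1% higher and 27.9% lower. The rise of EIL1 did not hold under each way of scaling the arrays, as described further on.

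**Figure D1:**
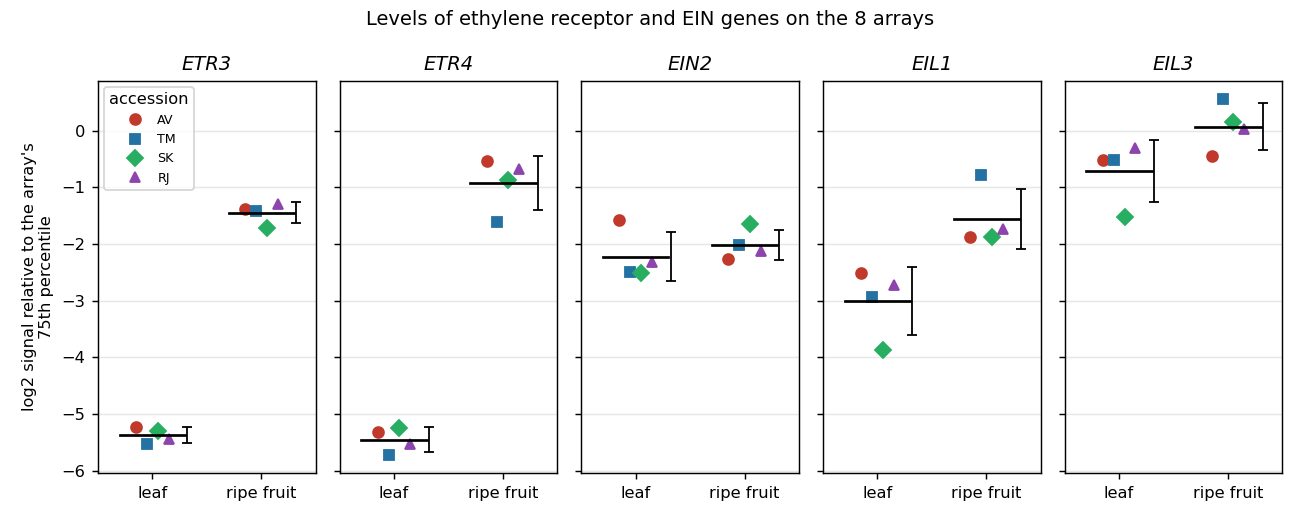
Level of each gene on each of the 8 arrays (y axis: log2 signal relative to the array's 75th percentile, mean over the probes that passed the filter), with 1 symbol per accession, a bar at the tissue mean and a whisker of 1 SD. ETR3 and ETR4 lie between -5.72 and -5.22 in leaf and between -1.71 and -0.53 in fruit, EIL1 is higher in fruit without overlap, and the tissues overlap for EIN2 and EIL3.

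ETR3, whose dominant mutant form makes fruit insensitive to ethylene, had levels of -5.22 in AV, -5.53 in TM, -5.30 in SK and -5.44 in RJ leaf. In fruit the levels were -1.38 in AV, -1.42 in TM, -1.71 in SK and -1.29 in RJ. The tissues did not overlap, as was the case with fruit above leaf for 26.8% of 4729 genes with a value on each array, with a further 29.3% having all fruits below all leaves. The SD among fruits was 0.18 for the mean of the 4 probes (n = 4) and 0.31 for the brightest of them. None of the 4 probes was above background on any leaf array, while all 4 were on every fruit array. Limma's adjusted p for the measured difference of the gene was 1.12e-05, which the filter favoured. Since the leaf level is only bounded, the fold is given as a bound, the fruit mean against the lowest leaf signal counted as above background or the gene's own signal, whichever was higher: ETR3 was at least 4.22-fold higher in fruit.

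All 4 ETR3 probes were brighter in fruit, with bounds of at least 8.88-fold, 3.80-fold, 3.59-fold and 2.62-fold. The brightest, A_96_P000341, had processed signals of 474, 410, 403 and 264 in leaf of AV, TM, SK and RJ and of 4219, 2396, 2736 and 3437 in their fruit. The median probe signals of these leaf arrays were 223, 152, 386 and 143. This ETR3 probe gave the highest of the 4 bounds. The dimmest, A_96_P090469, rose from between 103 and 320 in leaf to between 712 and 1229 in fruit and gave the lowest bound. Its highest leaf signal, 320 in SK, was on the array whose median probe signal was also the highest, 386 against 143 to 223 on the other leaf arrays.

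ETR4, the receptor gene whose loss speeds ripening, was measured by 1 of its 2 probes. Levels of that probe, A_96_P000131, were -5.31 in AV, -5.72 in TM, -5.24 in SK and -5.53 in RJ leaf, and -0.53, -1.60, -0.88 and -0.67 in the fruit of the same accessions. All fruits were above all leaves, and TM fruit was the lowest fruit. In processed signal the leaf values were 223, 145, 369 and 137, close to the median probe of each array (223, 152, 386 and 143), and the fruit values were 2867, 1025, 2452 and 2908. The gene was at least 6.08-fold higher in fruit. Limma's adjusted p of 7.30e-06 is for the measured difference, which the filter favoured, and adds nothing to this bound. The other probe, A_96_P076774, was above background on none of the 8 arrays, with signals of 147 to 405 in leaf and 158 to 446 in fruit. Its difference was 1.58, in the same direction, and it was not tested. With both probes averaged, the measured difference of ETR4 was 3.05 ± 0.23 in place of 4.53, both against leaf signal not above background.

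EIN2, the membrane protein through which all receptors signal to the nucleus, was seen by 1 probe on all 8 arrays. Its levels were -1.58 in AV, -2.48 in TM, -2.50 in SK and -2.31 in RJ leaf, and -2.27, -2.02, -1.65 and -2.12 in fruit. The tissues overlapped, and AV ran against the others, with a fruit minus leaf difference of -0.69 against 0.19 to 0.85 in the remaining accessions. The tissue difference of 0.21 had a 95% confidence interval from -0.55 to 0.97 (limma's adjusted p = 0.617). Without the arrays of SK it was -0.01.

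EIL1, an EIN3-like factor that acts redundantly with its relatives in tomato, had 3 probes that passed the filter. Its levels were -2.51 in AV, -2.93 in TM, -3.87 in SK and -2.71 in RJ leaf. In fruit they were -1.87 in AV, -0.77 in TM, -1.87 in SK and -1.73 in RJ. Every fruit lay above every leaf, with SK the lowest leaf and TM the highest fruit. By accession the difference was 0.65 in AV, 0.98 in RJ, 1.99 in SK and 2.15 in TM, and limma's adjusted p was 0.00837. The 3 probes gave 1.67, 1.36 and 1.30, each called, while the 2 dim probes that failed the filter gave 1.30 and 0.70. The probe with 1.67, A_96_P078049, was above background on no leaf array. Its difference is therefore known only as a bound, at least 2.36-fold higher in fruit, and the mean of 1.44 for the gene includes it. On SK leaf none of the EIL1 probes was flagged as well above background, although the signals of the brightest probe there (1394) and in TM leaf (1424) were close. Leaving out 1 accession at a time gave 1.21 to 1.71 with an adjusted p of up to 0.0499, without SK. A fit with slide as a fixed term cannot separate tissue from slide and takes the difference from AV and TM alone, whose fruits share a slide. It gave 1.40 and no call (adjusted p = 0.0946).

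EIL3, the other EIN3-like gene of the set, had the single probe A_96_P011876, well above background on all arrays. Its levels were -0.51 in AV, -0.51 in TM, -1.52 in SK and -0.30 in RJ leaf, against -0.45, 0.56, 0.15 and 0.03 in fruit. Fruit exceeded leaf in 4 of 4 accessions, by 0.06 in AV, 0.33 in RJ, 1.07 in TM and 1.67 in SK, but AV fruit lay below RJ leaf, so that the tissues overlapped. The 95% confidence interval of the difference ran from -0.01 to 1.58 (limma's adjusted p = 0.0859). The gene was called without the AV arrays (1.02, adjusted p = 0.0279) and with the 75th percentile taken over all probes (1.04, adjusted p = 0.0278).

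**Figure D2:**
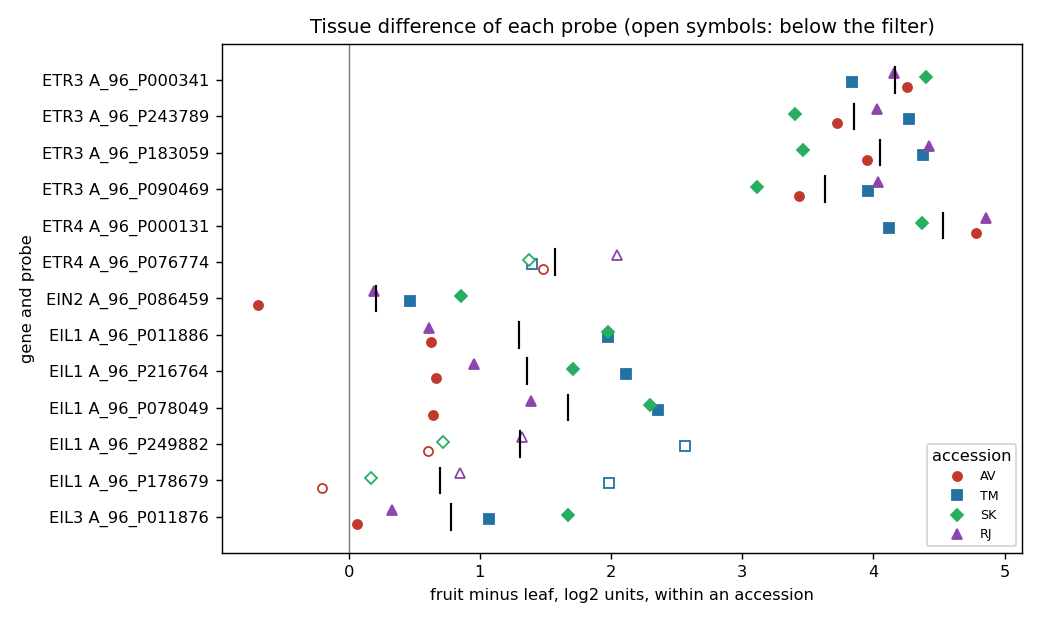
The 13 probes of the 5 genes, each with its log2 difference between fruit and leaf in every accession (x axis: fruit minus leaf, log2 units), with a vertical bar at the mean and open symbols for the 3 probes that did not pass the filter. ETR3 probes lie between 3.11 and 4.42 and the measured ETR4 probe between 4.12 and 4.86, all against leaf signal not above background, and the EIN2 probe from -0.69 to 0.85.

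The results for EIL1, EIL3 and EIN2 changed with the way the arrays were brought to a common scale. The 75th percentile was 1.12 log2 units lower on fruit arrays than on leaf arrays, and the subtraction adds this amount to every fruit minus leaf difference. Before any scaling, the brightest EIL1 probe, A_96_P011886, gave signals of 1934, 1424, 1394 and 1567 in leaf of AV, TM, SK and RJ and 1395, 2289, 1764 and 1749 in fruit, and the tissues overlapped. Scaling on 3 spike-in probes, control RNAs added to each labelling reaction, moved the median of all probes tested from 0.08 to -1.23, and with it 9.61% of all genes tested were called higher in fruit and 58.5% lower. On that scale EIL1 was at 0.13 ± 0.47 (limma's adjusted p = 0.809), EIL3 at -0.53 ± 0.47 (adjusted p = 0.313), and EIN2 was called lower in fruit, at -1.10 ± 0.47 (adjusted p = 0.0295). With unscaled signals EIL1 was at 0.32, EIL3 at -0.34 and EIN2 at -0.91, none of them called, where 10.3% of all genes were called higher and 52.2% lower. The SE of each of the 5 genes was 0.47 with spike-in scaling and 0.49 with unscaled signals. The p-values on these 2 scales thus rest almost wholly on a spread pooled over genes, not on the spread of the single gene between accessions. This limit holds for every gene given on these scales. Which scale is closer to the amount of each transcript in the tissues was not tested.

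For the receptor genes the scale changed the bound. With spike-in scaling ETR3 was at least 1.70-fold and ETR4 at least 2.45-fold higher in fruit, and with unscaled signals the bounds were 1.94-fold and 2.80-fold. The 75th percentile over all probes gave the highest bounds, 5.06-fold for ETR3 and 7.29-fold for ETR4, among the 7 preparations in which a bound was computed. In bulk tissue a lower amount of RNA per cell cannot be told apart from fewer cells that express a gene.

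**Figure D3:**
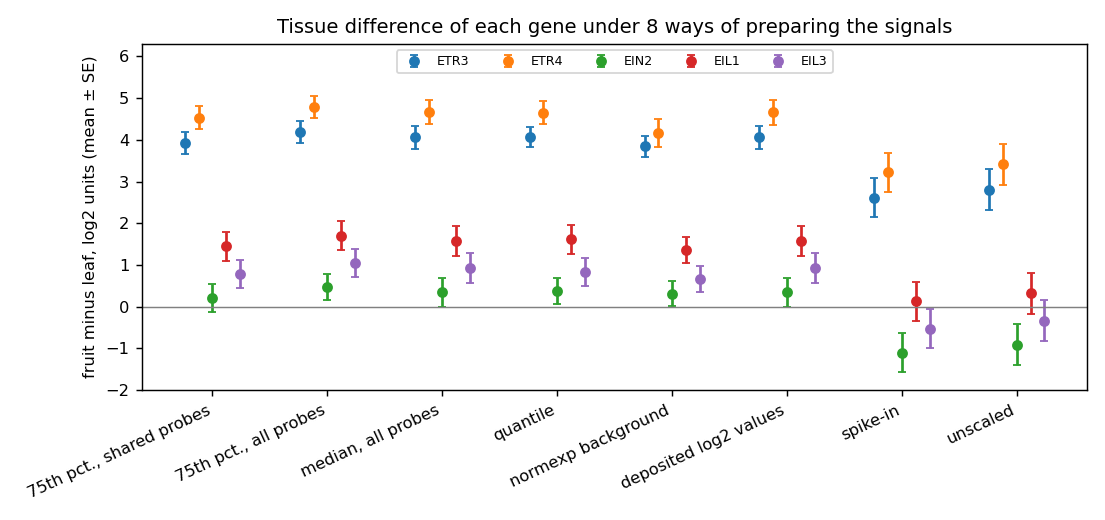
Fruit minus leaf difference of each gene (y axis: log2 units, mean over 4 accessions ± SE from limma, which pools spread over genes) under 8 ways of preparing the signals. ETR3 and ETR4, measured against leaf signal not above background, stay at 2.62 or above, while EIL1 drops to 0.13 and EIN2 and EIL3 fall below 0 with spike-in scaling.

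The rest of the signalling chain gave few measured genes. Of the other receptor genes, ETR1, ETR2, ETR5 and ETR6 have 15 probes on the array, and none of these probes was above background on any of the 8 arrays. No probe was matched to ETR7, so that ETR3 and ETR4 were the receptors seen. The kinase gene CTR1 and the F-box gene EBF2 had no matched probe either. GR, a receptor modulator known from the Green ripe mutant, and the kinase genes CTR3 and CTR4 have probes, but these were above background on none of the 8 arrays. TCTR2, a CTR-type kinase gene, was at 0.30 ± 0.34 (limma's adjusted p = 0.476), but at -1.01 and called lower with spike-in scaling (adjusted p = 0.0478). EIL4, a further EIN3-like gene, was at 0.54 ± 0.31 (adjusted p = 0.169), at -0.77 with spike-in scaling, and called higher with the 75th percentile over all probes (0.80, adjusted p = 0.0489). EIL2 was above background on 2 leaf arrays and no fruit array and was not tested. EBF1, the F-box gene whose product targets EIN3-like proteins, had 1 of 2 probes measured. Its levels were -1.42, -2.16, -2.04 and -1.66 in leaf of AV, TM, SK and RJ and 0.73, 1.60, 0.51 and 1.41 in fruit, without overlap. EBF1 rose by 2.88 ± 0.34 (adjusted p = 0.000159), and by 1.57 ± 0.47 with spike-in scaling (adjusted p = 0.00189).

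Upstream and downstream of the chain, 6 of 8 measured ethylene synthesis genes were called higher in fruit and 2 lower, of 19 listed, beside 25.9% and 28.9% of all genes. ACS2, ACS3, ACS4 and EFE entered through fruit alone and ACO6 through leaf alone, which fixed or favoured these calls. ACO1 and SAM1 were higher in fruit in 3 of 4 accessions, with limma's adjusted p of 0.0418 and 0.0453. With spike-in scaling 4 were called higher and 2 lower, ACS3 and SAM1 being lost, beside 9.61% and 58.5%. The synthase genes ACS2 and ACS4 were, like ETR3 and ETR4, above background on no leaf array. With 75th percentile scaling ACS2 was at least 6.24-fold higher in fruit and ACS4 at least 3.68-fold, while the oxidase gene ACO4 fell by 3.80 on the log2 scale. Among 6 measured ethylene response factor genes ERF6 (4.50 ± 0.45) and JERF1 (3.04 ± 0.30) rose, ERF3 (-1.02 ± 0.30) and ERF4 fell, and ERF2 (0.77 ± 0.29) and JERF3 (0.59 ± 0.30) did not pass. ERF4 was above background on no fruit array, which gives a bound of at least 1.96-fold lower in fruit, and it was not called after normexp background correction (-1.79, adjusted p = 0.0645). With the 75th percentile over all probes 4 of the 6 were called higher and 1 lower, ERF3 being lost, beside 33.5% and 25.5% of all genes. All 4 measured ethylene-responsive ripening genes (E8, Psy1, EXP1 and Cel2) and all 4 measured ripening regulators (RIN, NOR, FUL1 and AP2a) were called higher in fruit, also with spike-in scaling. All but Cel2 entered through fruit alone, which fixed or favoured their calls. E8, EXP1, RIN, NOR and AP2a were above background on no leaf array. After 75th percentile scaling their bounds were at least 5.02-fold, 9.78-fold, 11.3-fold, 4.81-fold and 1.55-fold. Bounds with spike-in scaling were not computed for these genes. That scale took the bound of ETR3 from 4.22-fold to 1.70-fold, so a rise of AP2a is not established there. Cel2, above background on all arrays, rose by 5.44 ± 0.38. These lists entered through the same filter, and their members were chosen with earlier results of these data known.

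**Figure D4:**
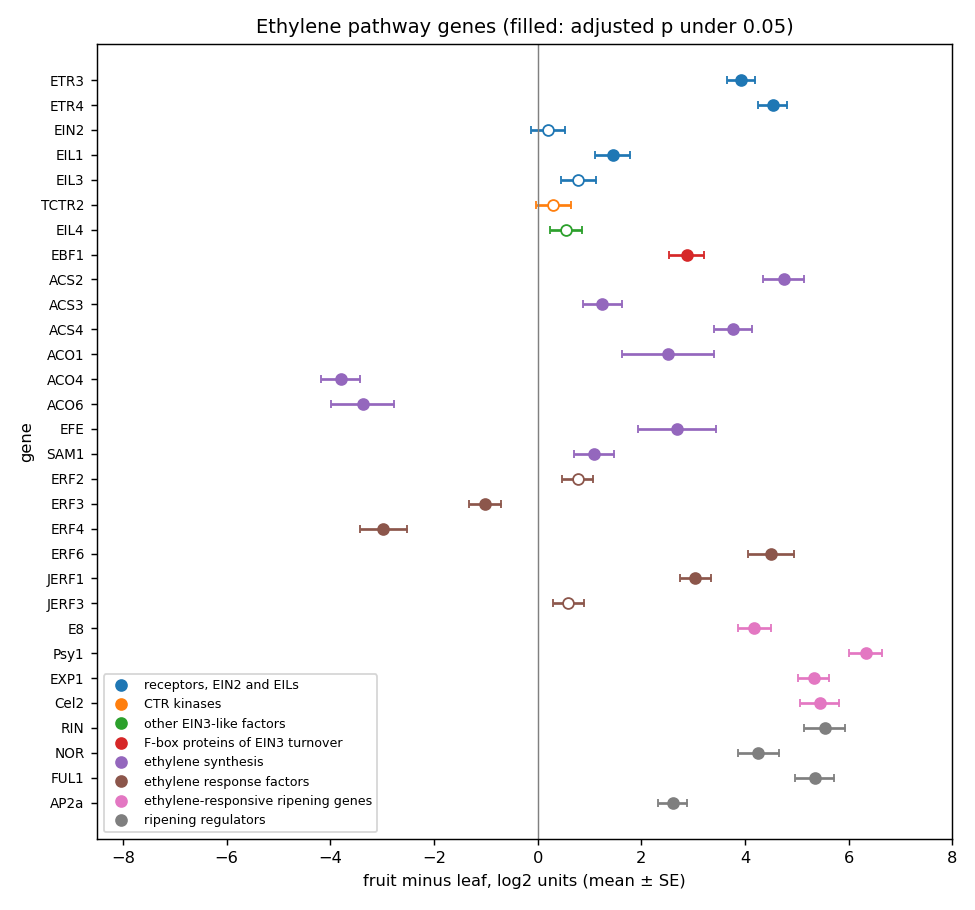
Fruit minus leaf difference of the receptor, EIN2 and EIL genes and of other measured ethylene and ripening genes (x axis: log2 units, mean over 4 accessions ± SE from limma, which pools spread over genes), coloured by gene list and filled where the adjusted p of limma was under 0.05. ETR3 at 3.93 and ETR4 at 4.53 are set against leaf signal not above background, EBF1 is at 2.88, and EIN2, EIL3, TCTR2, EIL4, ERF2 and JERF3 are open.

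Differences between accessions over both tissues were not detected for any of the 5 genes. By limma's F test of the 3 accession terms the adjusted p was 0.9995 for each, and 0 of 5 had an unadjusted p under 0.05, the lowest being 0.281 for EIL1 and the highest 0.942 for ETR3. Over all 4733 genes, 0% were called and 2.96% had an unadjusted p under 0.05. With 1 array per accession and tissue, a test of single accessions within a tissue is not possible, and the values that follow are descriptions of single arrays.

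On the log2 scale TM fruit differed from the mean of the other fruits by -0.91 for ETR4 and by 1.05 for EIL1. Among all genes tested, 10.6% had a lower difference of TM fruit from the other fruits than ETR4, and 95.7% a lower one than EIL1. These positions did not depend on the scale: TM was the lowest fruit for ETR4 and the highest for EIL1 in all 8 preparations of the signals. EIL3 was also highest in TM fruit, by 0.65 above the other fruits, in 7 of 8 preparations, the exception being unscaled signals, where SK was highest. Of the other 25 measured pathway and ripening genes, TM was the lowest fruit for 12 and the highest for 8.

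AV fruit was lowest for EIL3 in all 8 preparations (-0.70 from the other fruits after 75th percentile scaling) and for EIN2 in 7 of 8 (-0.34). AV leaf, in contrast, was the highest leaf for EIN2 in all 8, by 0.86 above the other leaves, and for EIL1, by 0.66. This accession had the smallest fruit minus leaf difference of EIN2, EIL1 and EIL3. After 75th percentile scaling SK leaf differed from the other leaves by -1.15 for EIL1, there not above background, and by -1.08 for EIL3. It was the lowest leaf for each in 7 of 8 preparations, RJ being lowest with spike-in scaling. The size of these gaps depended on the scale. Unscaled, SK leaf was at 9.90 for EIL1 against 9.91 to 10.60 in the other leaves. For EIL3 it was at 12.25 against 12.32 to 12.60. SK fruit was the highest fruit for EIN2 in all 8. The order of ETR3 among fruits changed with the scale, RJ being highest in 5 preparations, TM in 2 and AV in 1.

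**Figure D5:**
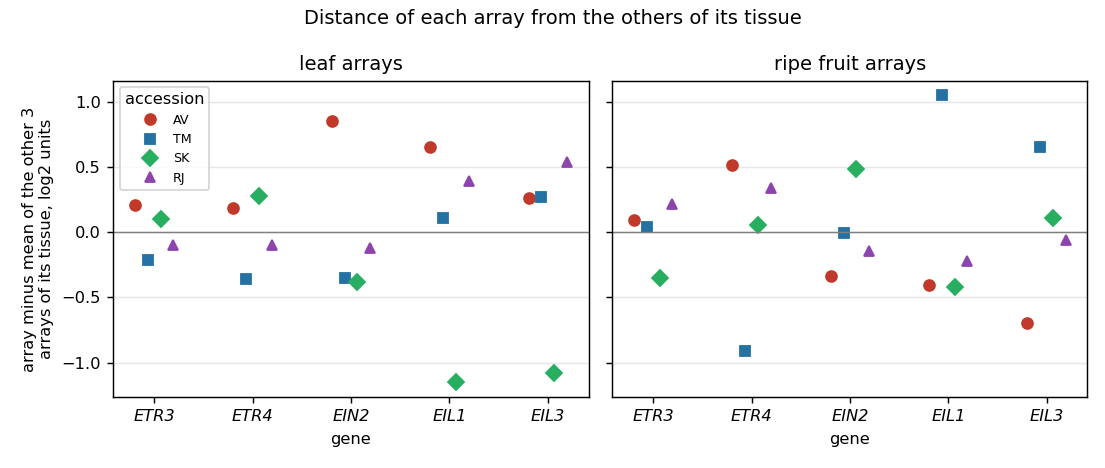
Difference of each array from the mean of the other 3 arrays of its tissue (y axis: log2 units) for each gene, leaf arrays at the left and fruit arrays at the right. TM fruit stands at -0.91 for ETR4 and 1.05 for EIL1, SK leaf at -1.15 for EIL1 and -1.08 for EIL3, and ETR3, whose leaf values are not above background, stays within 0.35 of 0 throughout.

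Across the 8 arrays, profiles were compared by the root mean square difference of log2 levels, each centred on the mean of its gene. Within the set, EIL1 and EIL3 were the closest pair (0.40), followed by ETR3 and ETR4 (0.43), and EIN2 and ETR4 the farthest apart (2.21). Among 363 other named genes, PSR (0.27) and PPCK2, a phosphoenolpyruvate carboxylase kinase gene (0.34), were nearest to ETR3. HSP21, a plastid small heat shock protein gene (0.30), and again PSR (0.35) were nearest to ETR4. The blue light receptor gene CRY1A (0.21) and LeMA-1 (0.21) were nearest to EIN2. EIL1 was nearest to the aquaporin gene PIP2-4 (0.23) and the autophagy gene ATG8a (0.27), and EIL3 to krp1, a cyclin-dependent kinase inhibitor gene (0.15), and PIP2-4 (0.22). ETR3, ETR4, PSR, PPCK2 and HSP21 were above background on no leaf array, so that 4 of the 8 values in each of these profiles are background, which these genes share. The distances describe 8 arrays that share slides and scaling.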

How the data were processed

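The deposited scanner files hold background-subtracted intensity values per spot, with flags and control types in other columns. Per the file headers the software was version 10.7.3.1 of Agilent Feature Extraction. A further deposited table holds log2 values, whose processing is not given in the sources used here. Once a constant per array and a constant per probe were removed, 99.9% of its values were less than 0.02 from the log2 processed signal. What was subtracted per probe is unknown, and the array medians lay between -0.07 and 0. The series' value table repeats the processed intensity deposited in the scanner files.

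Outlier spots were dropped, spots of a probe averaged on the log2 scale, and a probe was taken as above background where at least 50% of its spots had the scanner's flag. The design labels 8503 ordinary probes as negative controls, and whether this moved the flag was not tested. The 75th percentile was subtracted per array, over probes above background on all arrays, since fewer than 50% of probes were detected. Of the 33750 probes, 2936 matched a RefSeq transcript, of 1214 genes (assembly SLM_r2.1, names only). Probes of a gene that passed the filter were averaged.

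Tissues were tested by lmFit and eBayes of limma 3.58.1 (R 4.3.3), with accession as a fixed block taken from the sample titles, 3 residual degrees of freedom and Benjamini-Hochberg adjustment over all genes or probes tested. Deviations from the tissue mean in leaf and fruit of 1 accession had correlations of -0.16 to 0.03 across 4729 genes. Genes, lists, tests and naming rule were chosen with earlier results of these data known. The rule took all 5 genes, every measured gene of the pathway lists and, for each of the 5, the 2 named genes of nearest profile. The routines were tested on simulated data. Alternatives changed the background correction (normexp on median spot and background signals), scaling, filter, block, slide, prior, probe choice and arrays. The number of arrays limits the precision.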

Additional observations from a re-analysis of the deposited data

Results flagged for a closer look

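EIL1 in TM fruit, at -0.77 on the log2 scale, lay far from the other fruits, which were between -1.87 and -1.73. Its gap to the nearest of them was 0.87 of the whole range, above Dixon's critical value of 0.829 for 4 values. This was 1 such value in 36 sets of 4 arrays examined, no more than the share of about 5% of sets that chance flags. The cause was not tested.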

How the results depend on the processing

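ETR3 and ETR4 entered the test through fruit alone, so their calls under the alternatives say nothing of stability. Their measured differences ran from 2.62 to 4.19 and from 3.05 to 4.79 on the log2 scale over 21 alternatives each. EIL1 entered through fruit alone too, as its tested probes were not above background on SK leaf, so the filter favoured its calls. With spike-in scaling EIN2 reversed to -1.10, EIL3 to -0.53 and the EIL1 probe A_96_P011886 to -0.0111, and EIL1 was no longer called (0.13), with 68.1% of all genes called in place of 54.8%. Unscaled signals, an alternative chosen after seeing the data, put EIN2 at -0.91, EIL3 at -0.34 and EIL1 at 0.32, and left 2 genes and 5 probes called, where 62.5% of all genes and 63.6% of all probes were. Spike-in scaling without the SK arrays, also added later, gave -1.14, -0.64 and 0.13 for EIN2, EIL3 and EIL1, with 2 genes called (54.6% of all genes). The fit with slide as a fixed term is the difference in AV and TM alone and adjusts nothing between tissues. It put EIN2 at -0.11 and EIL1 at 1.40 without a call (adjusted p = 0.0946), leaving 2 genes and 5 probes (34.1% of all genes, 36.4% of all probes). EIL3 was called with the 75th percentile over all probes (1.04, 59.0% of all genes). Slide as a random block had an estimated correlation of -0.28, which lowered the SE of each of the 5 genes to 0.593 to 0.612 of that with no block, so the call of EIL3 there (0.78) says nothing of slide (76.9% of all genes were called). Among probes above background on all arrays, which keep only EIN2 and EIL3 of the 5 genes, 0 genes and 0 probes were called by limma (30.7% of all genes, 30.5% of all probes), 1 of each, that of EIL3, had an unadjusted p under 0.05, and ETR3, ETR4 and EIL1 have no value there. Leaving out 1 accession at a time gave -0.0094 (without SK) to 0.50 for EIN2, 0.49 to 1.02 for EIL3, which was called without AV, 3 to 4 genes and 7 to 9 probes called (43.4% to 59.6% of all genes). Without the accession block, that is with no replicate block, 3 genes and 8 probes were called (59.6% of all genes), and no call of the 5 genes changed. Scalings other than spike-in and none moved the median of all probes by 0.09 to 0.26. For signals not well above background, such as the receptors in leaf, depth of signal allows only bounds.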
